A study of Mus musculus with 6 samples.

Results

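The genes described here encode 9 secreted antagonists of Wnt signalling, Sfrp1, Sfrp2, Sfrp4, Sfrp5, Frzb, Wif1, Dkk1, Dkk2 and Dkk3, among 21887 protein-coding mouse genes. For each gene, the peaks that overlapped its span or the 2000 bp on either side were taken from the peak list of every library, which gave 82 peaks in all. Methylated DNA of whole lung had been captured with a methyl-CpG-binding protein and sequenced (MBD-seq), and each peak is a stretch enriched in such captured fragments. The transgenic animals were 3 mice carrying the transgene SPC-DNMTdelta3B/DG, a deletion variant of the de novo DNA methyltransferase DNMT3B under the promoter of surfactant protein C, and they were set against 3 wild-type mice. All were 12 to 16 months old and are given as biological replicates. The genotype of transgenic replicate 2 is spelled SPC-DNMTdeltaB/DG in its label. The founder line of each transgenic animal is not given. The promoter is active in alveolar type 2 cells, while the DNA came from all cells of the lung. A change in the makeup of the tissue and a change in methylation within cells therefore cannot be told apart, and peaks in genomic DNA allow no check of the tissue by expressed markers.

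Wnt proteins are secreted signals that bind Frizzled receptors and the co-receptors Lrp5 and Lrp6 and stabilise beta-catenin. The secreted frizzled-related proteins, to which Frzb belongs, and Wif1 bind Wnt proteins outside the cell, whereas Dkk1 and Dkk2 bind the co-receptors. Dkk3 is a divergent member of its family that does not act on Lrp6 as Dkk1 does. In human lung and other cancers, genes of this group are known for dense methylation over the promoter together with loss of expression.

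No library had a peak within 2000 bp of the transcription start of any of the 6 genes whose strand was known, which were Sfrp2, Sfrp5, Frzb, Wif1, Dkk1 and Dkk2. A count of 0 of 6 genes allows a share of up to 50%. Among the 17492 protein-coding genes with a known strand, 26.0% had a peak at the start in at least 1 library, and 74.0% had none in any library, as these 6 had. Within single libraries the share with a start peak was 12.1% to 18.4% in transgenic and 4.06% to 18.7% in wild-type lungs. The 300 bases around each start, 250 before and 50 after, are given for 4 genes, taken from RefSeq (GRCm38.p6, the assembly of mm10) and written 5′ to 3′ along the gene's strand, with every CpG in capitals. Sfrp2 and Frzb are shown because a region at their other end had a peak in 5 libraries. Wif1 and Dkk1 are shown because they held the most and the fewest CpG of the 6. The annotated start used for the Sfrp2 sequence lies inside the gene span. Its 300 bases begin at 83766071, whereas start peaks and distances were counted from 83765750, the lower end of the span.
Sfrp2 (chr3:83766071-83766370, plus strand): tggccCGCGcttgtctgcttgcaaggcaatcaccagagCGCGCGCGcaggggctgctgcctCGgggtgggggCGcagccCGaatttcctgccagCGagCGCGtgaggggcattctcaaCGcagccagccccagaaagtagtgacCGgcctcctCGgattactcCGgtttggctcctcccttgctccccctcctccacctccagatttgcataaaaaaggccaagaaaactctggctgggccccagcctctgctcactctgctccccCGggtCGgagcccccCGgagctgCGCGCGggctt
Frzb (chr2:80447347-80447646, minus strand): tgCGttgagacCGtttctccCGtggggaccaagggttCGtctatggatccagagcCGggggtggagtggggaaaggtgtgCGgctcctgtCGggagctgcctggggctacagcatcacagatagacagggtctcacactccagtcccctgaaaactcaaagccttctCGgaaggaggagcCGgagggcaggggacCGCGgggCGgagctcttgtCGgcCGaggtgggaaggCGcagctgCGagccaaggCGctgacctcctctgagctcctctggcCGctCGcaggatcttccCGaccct
Wif1 (chr10:121033754-121034053, plus strand): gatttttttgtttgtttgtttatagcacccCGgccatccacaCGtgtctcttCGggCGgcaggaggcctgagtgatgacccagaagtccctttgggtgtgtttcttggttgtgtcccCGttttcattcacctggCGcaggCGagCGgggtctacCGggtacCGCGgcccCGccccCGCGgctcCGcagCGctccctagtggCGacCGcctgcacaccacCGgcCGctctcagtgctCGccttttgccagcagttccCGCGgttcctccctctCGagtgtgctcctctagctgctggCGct
Dkk1 (chr19:30549447-30549746, minus strand): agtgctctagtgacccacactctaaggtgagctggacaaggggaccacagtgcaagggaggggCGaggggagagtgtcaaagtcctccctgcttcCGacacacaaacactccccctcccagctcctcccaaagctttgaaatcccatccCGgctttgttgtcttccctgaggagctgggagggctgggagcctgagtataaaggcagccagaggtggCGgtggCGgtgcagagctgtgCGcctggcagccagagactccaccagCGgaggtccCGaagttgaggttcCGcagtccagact

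These windows held 25 CpG at Wif1, 22 at Sfrp2, 20 at Frzb and 9 at Dkk1, and the windows of Sfrp5 and Dkk2 held 15 and 11. The median of 21263 promoter windows of protein-coding genes was 13 CpG. None of the 6 windows was overlapped by a peak in any library, and neither were most others, as 6.78% of all promoter windows had a peak in at least 1 library. By CpG content, that share was 3.78% of windows with 0 to 4 CpG, 14.0% of those with 5 to 14 and 4.75% of those with 15 or more. The 4 genes with 15 or more CpG and the 2 genes with fewer were alike in having none. The nearest peak to a start lay 2037 bp away at Dkk1, in wild-type replicate 2 only, and 2702 bp away at Wif1, in transgenic replicate 1. At Dkk2 no library had a peak closer than 17674 bp, against a median over all genes of 7037 to 29024 bp depending on the library. For Sfrp1, Sfrp4 and Dkk3, whose strand was not used here, both ends were searched. A single peak was found, 912 bp inside the lower-coordinate end of Sfrp4 in transgenic replicate 1, with a score of 65.1. At Sfrp1 and Dkk3 the closest peaks to either end lay 4569 and 5057 bp away.

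Merging the lists gave 34 regions in the windows of the 9 genes, where peaks of different libraries that overlapped or touched were counted as 1 region. Of these, 26 lay in gene bodies only and 8 reached into an end window, 7 of which were at a transcript end and 1 at the end of Sfrp4 named above. Transcript ends thus carried peaks at Sfrp2, Sfrp5, Frzb, Wif1 and Dkk1, which is 5 of the 6 genes with a known strand, against 41.7% of all genes in at least 1 library. This count covers 6 genes only, and at Sfrp5 and Dkk1 it rests on 1 peak in 1 library. The count per library depends on the window. On average 3 of the 9 genes had a peak at an end in transgenic and 2 in wild-type libraries with windows of 2000 bp. Of all protein-coding genes, a mean of 38.1% in transgenic and 25.0% in wild-type libraries had one with that window. For the 9 genes the means were 1.67 and 1 with 1000 bp, and 0 and 0.333 with 500 bp. The shares of all genes with these narrower windows were not counted, so the fall cannot be called particular to the 9 genes. Of the scores over member regions and libraries, 67.9% were below the median of all peaks, but regions of Sfrp2 and Dkk2 reached 380 and 248. The median score, the authors' peak caller's own value with a lowest value of 50, was 73.6 over member regions and libraries, against 96.3 over all peaks of all lists. A peak in 5 or 6 libraries was found at 5 of the 34 regions (14.7%), against 25.9% of all 166001 merged regions. A peak in 1 library only was found at 12 regions (35.3%), against 28.4% of all. These counts are small, and 11 of the 34 regions lie at Wif1 and 8 at Sfrp1, so they do not set the genes apart. No window contained another annotated gene. Exons and introns were not resolved.

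**Figure D1:**
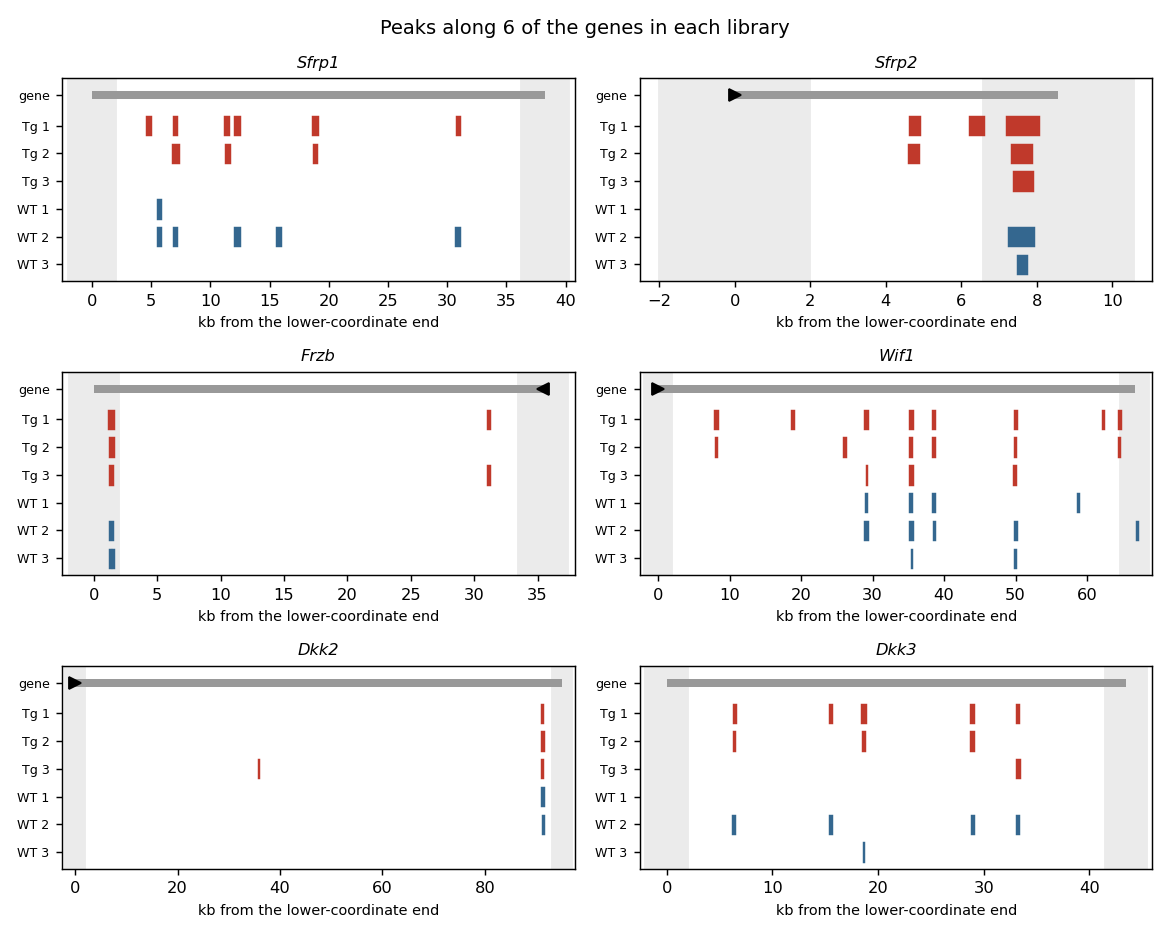
Peaks of each library along 6 of the genes, in kb from the lower-coordinate end, with transgenic libraries (Tg, red) above wild-type libraries (WT, blue), the gene span as a grey bar and its start as a triangle where the strand was known. Shaded strips are the windows of 2000 bp on each side of the gene ends. Peaks at Sfrp2 and Frzb recur near the transcript end, those of Dkk2 recur at 91.3 kb, and the start windows are empty.

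The lists themselves differed in length, which bears on every count here. They held 78952 to 120349 peaks over 35.4 to 63.4 Mb in transgenic lungs and 30640 to 111211 peaks over 6.89 to 54.4 Mb in wild-type lungs. Read depth is unknown. The shortest list was that of wild-type replicate 3. A peak in the window was found at 8, 6 and 5 of the 9 genes in transgenic replicates 1, 2 and 3 and at 3, 7 and 4 in wild-type replicates 1, 2 and 3. At a gene end the counts were 5, 2 and 2 in transgenic and 0, 4 and 2 in wild-type libraries, and in the body 6, 5 and 4 in transgenic and 3, 4 and 2 in wild-type libraries. The window and end counts of the groups overlapped, and the body counts met at 4. None of the 9 genes had a peak in all transgenic and no wild-type libraries, which 0.742% of the 16577 protein-coding genes with covered sequence had, and none had the reverse pattern (0.00603%). Of all protein-coding genes, 60.3% to 69.6% had a peak in the window in transgenic and 33.1% to 68.8% in wild-type libraries. A peak at an end was found at 30.0% to 42.5% of them in transgenic and 10.4% to 41.2% in wild-type libraries. Among genes long enough to have a body, 58.4% to 67.9% had a body peak in transgenic and 32.0% to 66.6% in wild-type libraries. Dkk1 is too short to have a body. Summed over the 9 windows, peaks covered 6825 ± 4086 bp in transgenic and 3474 ± 3239 bp in wild-type lungs (SD, n = 3 each). Per Mb covered by the whole list, the 9 windows held 177, 113 and 89.0 bp in transgenic and 80.3, 132 and 165 bp in wild-type libraries, with means of 126 bp in each group. When each list was reduced to its 30640 top-scoring peaks, the summed length was 1082 bp in transgenic and 1292 bp in wild-type lungs. With only peaks that reached the pooled median score it was 2944 bp in transgenic and 1239 bp in wild-type lungs. Without transgenic replicate 1 the difference of the full-list means was 1150 bp, and without wild-type replicate 2 it was 5199 bp. The part of list length in the higher sum of the transgenic lungs was not tested.

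**Figure D2:**
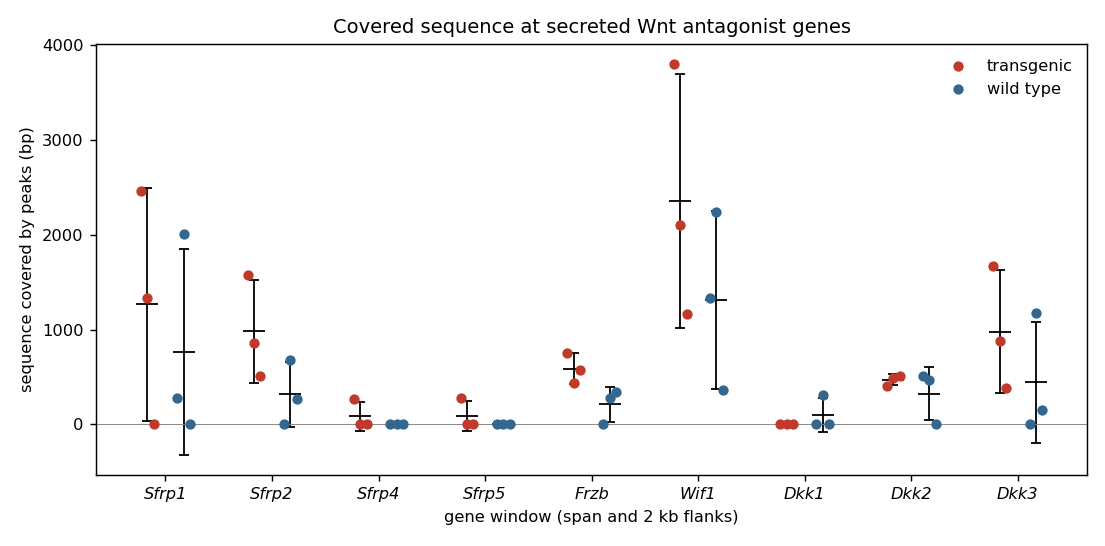
Sequence covered by peaks in bp (vertical axis) in the window of each gene, with 1 point per library and transgenic (red) left of wild type (blue); horizontal marks are group means and bars are SD (n = 3 each). The groups overlap at every gene but Frzb, where transgenic libraries lie at 432 to 759 bp and wild-type libraries at 0 to 347 bp.

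The authors' deposited table of differential regions held none in the window of any of the 9 genes. Over the 92205 regions that its p and FDR imply were tested, which is also how many merged regions had a peak in at least 3 of the lists, the table called 407 (0.441%), 304 higher (0.33%) and 103 lower (0.112%) in transgenic lungs. The 9 genes held 12 such regions, so that 0 of 12 allows a share of up to 25% and says little about these genes. The nearest called region lay 1.17 Mb from Dkk1 and 7.35 Mb from Sfrp2 in the authors' deposited table, and between these distances for the other 7 genes.

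Among the frizzled-related genes, Sfrp2 (chromosome 3, 83765750 to 83774314, mm10) had the strongest region. It lay at 83772934 to 83773804, with its centre 945 bp inside the transcript end, and had a peak in 5 of 6 libraries. Its scores were 313, 380 and 320 in transgenic replicates 1, 2 and 3, against no peak, 214 and 92.2 in wild-type replicates 1, 2 and 3. All transgenic scores were above all wild-type scores. Scores have no common scale across libraries, which limits this and the other comparisons of scores between libraries. Of the 12 member regions with peaks in 3 or more lists, 2 had transgenic scores above all wild-type scores and 0 the opposite. Over all 92205 such regions the shares were 13.6% and 0.0618%, so 2 of 12 is near the background. Ranked within its own list, the Sfrp2 region stood above 82.3%, 93.0% and 95.4% of peaks in transgenic lists and above 82.6% and 76.8% of peaks in those of wild-type replicates 2 and 3, and on this scale the groups overlapped. The whole window was covered over 1577, 855 and 512 bp in transgenic and 0, 682 and 270 bp in wild-type libraries, with the group ranges overlapping (two-sided exact permutation p = 0.20, with 0.10 the smallest that 3 against 3 libraries allow). A weaker region in the body, at 83770352 to 83770662, had peaks in transgenic replicates 1 and 2 with scores of 51.9 and 64.2.

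Frzb (chromosome 2, 80411970 to 80447396) is also called Sfrp3. With flanks of 2000 bp, it was the only one of the 9 genes whose covered length did not overlap between groups. Its window was covered over 759, 432 and 578 bp in transgenic and 0, 284 and 347 bp in wild-type libraries. That is 590 ± 164 bp in transgenic and 210 ± 185 bp in wild-type lungs (SD, n = 3 each; exact permutation p = 0.10, adjusted p = 0.661 over 16577 genes). Of these 16577 protein-coding genes with covered sequence, 6.76% were higher in transgenic lungs without overlap and 0.00603% lower, so 1 of 9 and 0 of 9 are near the background. The order of covered length at Frzb did not hold per Mb of covered sequence or with equal numbers of top-scoring peaks. With only peaks that reached the pooled median score, the difference of means was 307 bp (exact permutation p = 0.40). Per Mb of covered sequence Frzb had 12.0, 7.98 and 16.3 bp in transgenic and 0, 5.22 and 50.4 bp in wild-type libraries, the last in the shortest list, and with equal numbers of top-scoring peaks the difference of means was -116 bp. Its main region (80413079 to 80413575) lay with its centre 1357 bp inside the transcript end. The scores there were 139, 112 and 72.9 in transgenic libraries, against no peak, 68.2 and 60.1 in wild-type libraries. This was the other region whose scores did not overlap. Ranked within its own list it stood above 54.0%, 54.8% and 33.1% of peaks in transgenic lists. In those of wild-type replicates 2 and 3 it stood above 22.6% and 23.8%, without overlap of the groups. The share of all regions without overlap on this scale was not counted, so the ranks add nothing to the scores.

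Sfrp1 (chromosome 8, 23411383 to 23449632) had 8 regions, all of them in the body. It was covered over 2460, 1337 and 0 bp in transgenic and 281, 2010 and 0 bp in wild-type libraries, so replicate 3 of each group had no peak and the groups overlapped (exact permutation p = 0.70). The scores were 52.0 to 114, and 1 of the 8 regions had a peak in 3 libraries. Without transgenic replicate 1 the difference of means changed sign, to -95.2 bp. Sfrp4 (chromosome 13, 19623175 to 19632825) and Sfrp5 (chromosome 19, 42197971 to 42202252) had 1 peak each, both in transgenic replicate 1, the longest list. The Sfrp5 peak lay 927 bp inside the transcript end with a score of 63.8. In the other 5 libraries neither gene had a peak.

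Wif1 (chromosome 10, 121034004 to 121100642) was the only one of the 9 genes with a peak in every library, and it had 11 regions. Its window was covered over 3808, 2101 and 1162 bp in transgenic and 1329, 2246 and 362 bp in wild-type libraries, and the groups overlapped (exact permutation p = 0.50). The region at 121069028 to 121069716, in the body 35368 bp from the start, was the only member region with a peak in all 6 libraries. Its scores were 160, 105 and 91.9 in transgenic and 59.3, 189 and 50.9 in wild-type libraries, and wild-type replicate 2 was the highest of all. A second body region, at 121083648 to 121084266, scored 159, 149 and 140 in transgenic libraries, against no peak, 199 and 53.5 in wild-type libraries. The transcript end window had a weak peak in transgenic replicate 1 (score 66.5) and another, elsewhere in the window, in wild-type replicate 2 (65.9). In transgenic replicate 2 the nearest peak (57.4) lay 2018 bp from the transcript end, outside the window. Per Mb of covered sequence, Wif1 had 60.0, 38.8 and 32.8 bp in transgenic and 50.4, 41.3 and 52.6 bp in wild-type libraries, a difference of -4.20 bp between means.

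**Figure D3:**
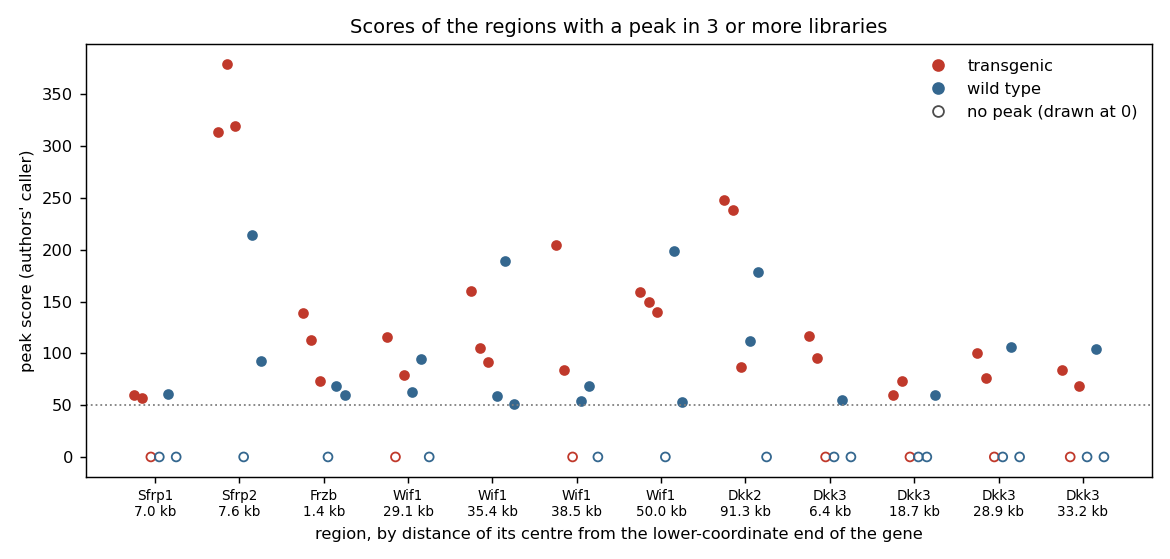
Peak scores of the authors' caller (vertical axis) in the 12 member regions with a peak in 3 or more libraries, with transgenic (red) left of wild type (blue) and libraries without a peak as open circles at 0; the dotted line is the lowest listed score, 50. The Sfrp2 region has the highest scores, 313 to 380 in transgenic and up to 214 in wild-type libraries, and at the regions of Wif1, Dkk2, Dkk3 and Sfrp1 the groups overlap. The scores have no common scale across libraries.

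Among the Dickkopf genes, Dkk1 (chromosome 19, 30545876 to 30549496) had no peak in any transgenic library and 1 in wild-type replicate 2, at 30547150 to 30547459 near the transcript end, with a score of 64.7. Dkk2 (chromosome 3, 132085266 to 132180304) is the longest of the 9 genes and had 2 regions, both in the body. The first had a single peak, in transgenic replicate 3 (score 75.0). The other lay at 132176283 to 132176836, with its centre 3745 bp before the transcript end, and scored 248, 238 and 86.4 in transgenic libraries, against 111, 178 and no peak in wild-type libraries. The covered length of Dkk2 was alike in 5 libraries, with 407, 493 and 516 bp in transgenic and 507, 465 and 0 bp in wild-type lungs (exact permutation p = 0.60). Without wild-type replicate 3 the difference of means was -14.0 bp. Dkk3 (chromosome 7, 112116019 to 112159482) had 5 body regions, 4 of them with a peak in exactly 3 libraries. It was covered over 1676, 878 and 384 bp in transgenic and 0, 1173 and 155 bp in wild-type libraries (exact permutation p = 0.40). Its scores were 53.5 to 117, and the groups overlapped.

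The other genes of the pathway were set beside these in 4 lists. Of the 19 Wnt ligand genes all had covered sequence in some library, as did 13 of 15 receptor genes, 19 of 21 genes of other extracellular modulators and 12 of 12 intracellular genes. Groups did not overlap, with transgenic higher, at 1 ligand gene, 0 receptor genes, 1 extracellular modulator gene and 0 intracellular genes, and no gene of the 4 lists was lower without overlap. The counts are near the background of 6.76%. The ligand gene was Wnt8a, with 806, 458 and 409 bp covered in transgenic and 0, 377 and 0 bp in wild-type libraries. The modulator gene was Rspo1, whose R-spondin product amplifies Wnt signalling, with 1153, 800 and 722 bp in transgenic and 300, 435 and 0 bp in wild-type libraries. The median difference of covered length, transgenic minus wild type, was 379 bp for the 9 antagonist genes, 602 bp for ligands, 588 bp for receptors, 373 bp for other extracellular modulators and 1001 bp for intracellular genes, against 402 bp for all genes with covered sequence. These values were not scaled by gene length, which differs widely between genes, so they do not rank the lists.

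A peak at the transcription start in at least 1 library was found at 4 of 15 ligand genes with a known strand, 4 of 9 receptor genes, 1 of 11 other modulator genes and 3 of 10 intracellular genes, beside 0 of the 6 antagonist genes. These counts are too small to set the antagonist genes apart. In the lists, 1 gene carried a region of the authors' deposited table. This was Rspo2, another R-spondin gene, with a region inside the gene (chromosome 15, 43141226 to 43142167) and a log2 fold of 0.69 (FDR 0.0550) in the authors' deposited table. Its peak scores were 1092, 789 and 415 in transgenic and 191, 511 and 62.7 in wild-type libraries, and the groups overlapped.

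**Figure D4:**
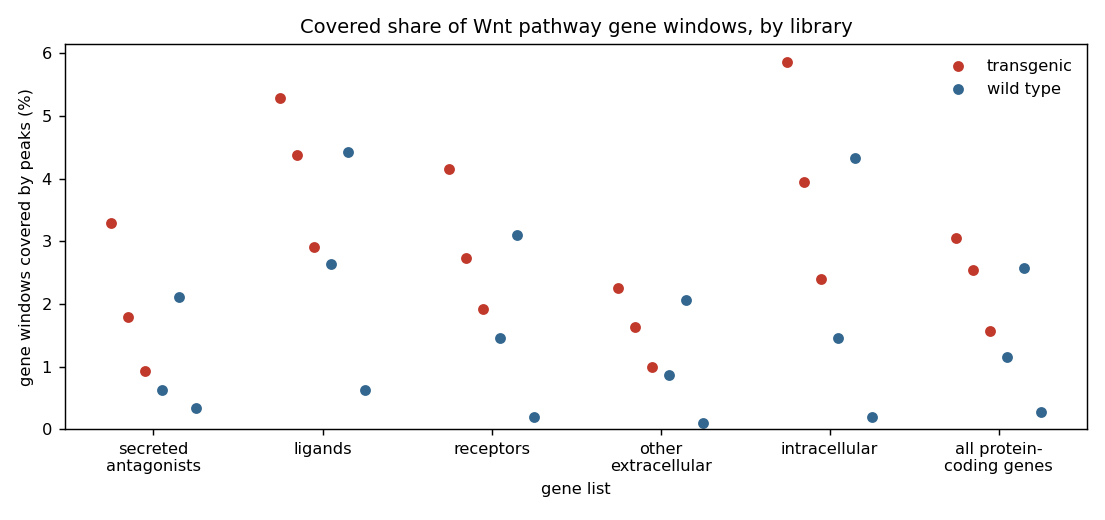
Share of the summed gene windows covered by peaks in % (vertical axis) for 5 lists of Wnt pathway genes and for all protein-coding genes, with 1 point per library and transgenic (red) left of wild type (blue). The antagonist genes lie at 3.29, 1.79 and 0.925% in transgenic and 0.621, 2.10 and 0.333% in wild-type libraries, and every list shows the same order of libraries within each group as all genes do.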

How the data were processed

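MBD-seq peak lists of 6 mouse lungs, 3 transgenic and 3 wild type, were analysed, grouped by the sample titles. The submitters' processing notes name Bowtie, the build mm10, DiffBind and edgeR, without versions. Each library has its own peak list with names as MACS writes them. Caller settings were not given in the sources used here. Each deposited score is the authors' caller's own value and has no common scale across libraries. The authors' deposited table gives log2 concentrations and a log2 fold, with the authors' own p-value and FDR, and lists called regions only.

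Gene spans came from RefSeq (GRCm38.p6) and strand from its promoter table, which matched 6 of the 9 genes. The end of the span on the strand's upstream side was taken as the transcription start and the other as the transcript end. A gene window was the span and 2000 bp on each side, an end window 2000 bp on each side of a gene end, and the body the rest of the span. A peak was counted at an overlap of 1 bp, so that a peak can count at an end and in the body. Covered length per window was compared by two-sided exact permutation tests, with Benjamini-Hochberg adjustment over 16577 genes, in Python 3.11.15, numpy 2.4.6 and scipy 1.17.1. No test was made over the 9 genes together. The calculation was tested on simulated peak lists. The members and lists were chosen with earlier results of these data known. Genes named outside the 9 were those in the 4 Wnt lists with a region of the authors' table or without overlap of the groups (at most 3 per list), and the 3 genes nearest to the most covered member. Alternatives were equal list lengths, a score threshold, other windows and flanks, the middle of the peak, length per Mb, a stricter FDR, a replicate block and leaving out each library. The annotation tables of the differential regions were not used.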

Additional observations from a re-analysis of the deposited data

How the results depend on the processing

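Read depth is unknown and 3 libraries per group cannot give an exact permutation p under 0.10, so neither a difference nor its absence at single genes can be shown. With equal numbers of top-scoring peaks per list, the difference in the number of genes with a peak, transgenic minus wild type, was -0.667 in the window and -0.667 in the body, against 1.67 and 2 with full lists. With only peaks that reached the pooled median score it was 0.667 in the body. Equal numbers turned the difference in covered length to -116 bp at Frzb, -352 bp at Wif1, -24.0 bp at Dkk2 and -51.7 bp at Dkk3, and so did the score threshold at Dkk2 (-24.0 bp). Per Mb covered by the list it was -6.45 bp at Frzb and -4.20 bp at Wif1. The cause was not tested. Leaving out 1 library, the difference ranged from -95.2 to 1135 bp at Sfrp1 and from -14.0 to 239.5 bp at Dkk2, and no member's sign turned otherwise, although Dkk1, Sfrp4 and Sfrp5 dropped to 0 without their only library with a peak. The number of all genes without overlap, 1120 higher and 1 lower in transgenic lungs, was 921 higher (5.56%) and 83 lower with equal numbers, and 1013 higher (6.11%) and 401 lower per Mb. It ranged from 1121 (without wild-type replicate 3) to 9346 (without wild-type replicate 2) higher and from 1 to 176 (without wild-type replicate 3) lower when 1 library was left out, where fewer libraries must be separated. Without transgenic replicate 3 it was 5732 higher. With flanks of 5000 bp the covered length of Sfrp2 did not overlap between groups either, with a difference of 1057 bp (exact permutation p = 0.10). The share of all genes without overlap was not counted with these flanks. With flanks of 2000 bp, the difference at Sfrp2 per Mb covered by the list was 1.12 bp (exact permutation p = 0.80). The count of 0 regions of the authors' table in member windows was also 0 at an FDR of 0.0498, without flanks and with flanks of 5000 bp.

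The replicate numbers are shared between groups, but the deviations of same-numbered libraries from their group means did not correlate above 0.1 in every pair over 16577 genes. The correlations were -0.264, 0.0922 and 0.545 for numbers 1, 2 and 3. That of number 3 was the highest of all 9 pairs, while transgenic replicate 1 correlated best with wild-type replicate 2 (r = 0.487). With the replicate block the summed covered length differed by 3351 bp, as it must with 1 library of each group per number. The exact test within replicate numbers gave p = 0.25 at Frzb, the smallest it allows, so the block could produce no call. These values therefore do not show whether the numbering matters. Leaving out 1 library, the difference in summed covered length ranged from 1150 to 5199 bp.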

Other observations

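Of the 4 member regions with a peak in exactly 5 libraries, 3 lacked a peak in wild-type replicate 1, those near the transcript ends of Sfrp2 and Frzb and the region of Wif1 at 121083648 to 121084266, and the region of Dkk2 lacked one in wild-type replicate 3. Among all 24811 merged regions with a peak in exactly 5 libraries, 16.7% lacked one in wild-type replicate 1 and 79.9% in wild-type replicate 3. The list of wild-type replicate 1 has 60131 peaks and that of wild-type replicate 3 has 30640. A region in exactly 5 libraries without a peak in the former must have one in the latter, the shorter list. Which library lacked the peak at these 4 regions was noticed in the data and was not tested.

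Sfrp2 had the largest median covered share of its window, 4.75% over the 6 libraries. The 3 genes nearest to it in covered share over the 6 libraries, among 3037 protein-coding genes with a window of similar length, were Cfap298 on chromosome 16, Gm21933 on chromosome 13 and Lrrc45 on chromosome 11. Their Euclidean distances were at most 2.82 percentage points.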
